A study of Arabidopsis thaliana with 30 samples.

Results

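The plastid ribosome is the machine that makes the proteins encoded in the chloroplast's own genome, and most of its protein subunits are themselves encoded in the nucleus. The 35 genes described here are nuclear genes listed for those subunits, taken by their locus identifiers from the 27655 loci of the expression table. They comprise 22 proteins of the large (50S) subunit, 9 of the small (30S) subunit and 4 plastid-specific ribosomal proteins (PSRP). Of those 4, PSRP1 is related to bacterial factors that bind the ribosome, so it may not be a fixed subunit. The rule uses identity alone and no expression value, although the set was proposed with earlier results of these data known. The 35 are not the whole set: 7 further nuclear subunit genes are described separately.

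Transcripts were measured by RNA sequencing in whole leaves of Arabidopsis thaliana, ecotype Col-0, genotype jazD, from plants 26 days old. In all groups the plants had 16 h of light and 8 h of dark at 20 °C. Every group carried jazD, which the labels do not explain. From general knowledge of the line, several genes of the JAZ family, repressors of jasmonate signalling, are disrupted in it, and no wild-type library was analysed here. Leaves were sprayed with 5 µM coronatine, a bacterial mimic of the active jasmonate hormone, or with water (mock), and were taken at 0, 1, 3, 12 and 24 h, with 3 libraries in each of the 10 groups. Per its design text, the series follows transcripts while coronatine removes the green colour of these leaves. The labels do not say whether libraries came from separate plants, so p-values reflect library-to-library spread, part of which could be technical.

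As background, the chloroplast ribosome resembles the bacterial one. Its large subunit joins amino acids and passes the growing chain through an exit tunnel, and its small subunit reads the messenger. A flexible stalk on the large subunit, built from RPL12 dimers on RPL10, recruits the GTP-hydrolysing translation factors. Plastid-encoded photosystem, ATP synthase and Rubisco large-subunit proteins are all made on it, so leaves build many of these ribosomes while they expand and turn green. The nuclear subunits are made in the cytosol and imported.

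Values were TPM, a level per transcript length and per library total that keeps no sequencing depth, so the depth behind each value is unknown. The median of the 19005 genes tested was itself lower in coronatine than in mock leaves, with log2 differences of -0.18, -0.46, -0.54 and -0.24 at 1, 3, 12 and 24 h. Differences are therefore given relative to that median, on the log2(TPM + 1) scale, and are called relative log2 differences. The standard error (SE) beside each is that of the difference on deposited TPM before the median is subtracted. Calls and p-values likewise test the differences without that subtraction. A gene is said to rise or fall only if limma called it both on the deposited TPM and after rescaling each library by its TMM factor (a trimmed mean of ratios), with matching sign and an adjusted p under 0.05. The adjusted p printed is the larger of the 2. Replicates correlated at 0.986 to 0.995 (Spearman, across genes). The 10 loci taken as disrupted ranged from 0 TPM for JAZ4 to 978 TPM for JAZ10 over all libraries, so reads were assigned to them. The intact JAZ8 read 16.7 TPM in mock and 529 TPM in coronatine leaves at 24 h. Whole leaf as the source fits its markers in mock leaves at 0 h, where 4 mesophyll genes summed to 38267 to 39994 TPM and the flower genes to 0 to 0.05 TPM.

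In mock leaves at 0 h all 35 genes were abundant. They summed to 1.32% to 1.45% of all TPM. The lower-expressed of the 2 RPL19 genes, AT4G17560, was the lowest, at 158, 153 and 133 TPM. The highest member stood 5.14 to 5.81 times above the lowest. All 35 passed the filter of at least 1 TPM in at least 3 libraries.

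At 0 h and 1 h no member separated coronatine from mock leaves by the rule above. At 0 h limma called 0 of 35 on either scaling (background 0% of genes each way), with 0 of 35 at an unadjusted p under 0.05 on TPM and 4 on TMM-rescaled TPM, and the authors' deposited table held 0. All 35 means were nevertheless a little lower in the leaves assigned to coronatine, with a median relative log2 difference of -0.12 and a range of -0.17 to -0.03, and 6 members had 3 coronatine values below 3 mock values (background 4.57%). At 1 h limma called 0 of 35 on both scalings (background 15.3% of genes fell and 9.52% rose), with 18 and 2 members at an unadjusted p under 0.05 on the respective scalings. On TPM as deposited alone 14 members were lower (background 41.7%), and over all 35 the median relative log2 difference at 1 h was 0.02, close to that of all genes. The library coronatine 1 h replicate 1 read lowest of its group in the members' sum, at 11299.8 TPM against up to 13249 TPM. Among the members at the 2 ends of the 1 h order, PSRP3/1 had a relative log2 difference of -0.14 (SE 0.112), RPS21 -0.14 (SE 0.072), RPL10 0.09 (SE 0.089) and RPL17 0.13 (SE 0.073), none of them called.

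**Figure D1:**
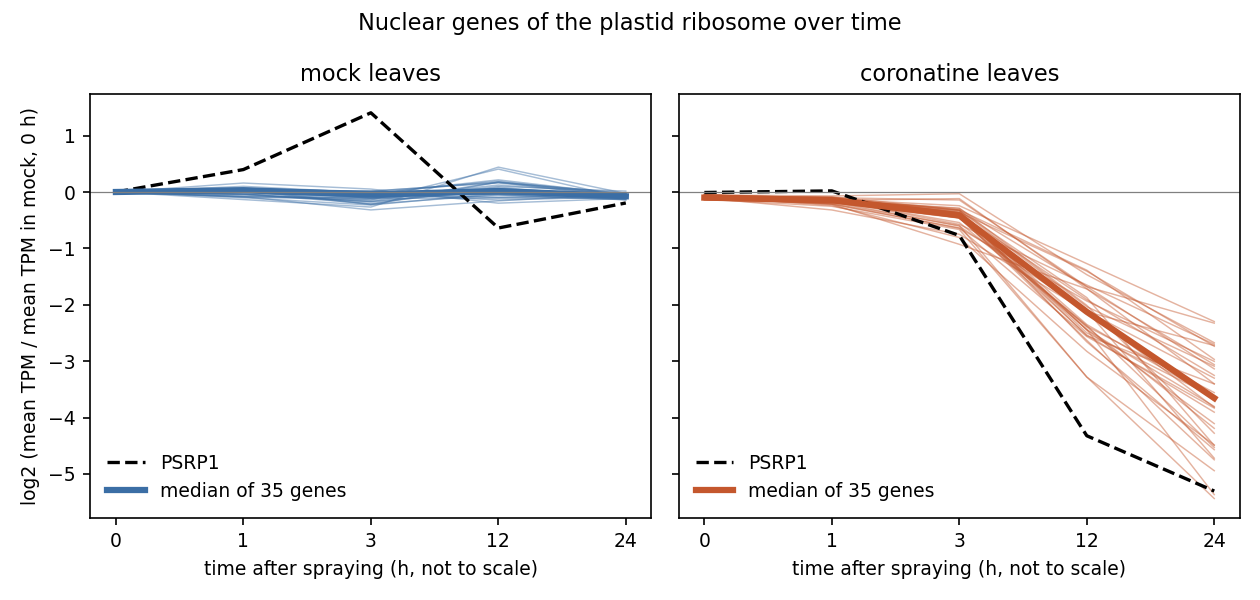
Each thin line is 1 of the 35 genes, as log2 of its mean TPM over its mean in mock leaves at 0 h (n = 3 per point, time axis not to scale), in mock leaves at left and coronatine leaves at right. The mock lines stay near 0 apart from PSRP1 (dashed). In coronatine leaves most lines already lie lower at 3 h than at 0 h. After 3 h all drop much further and spread apart, with PSRP1 at 4.11 TPM at 24 h.

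Against mock leaves PSRP1 was the first member called by the rule above, and the only 1 of the 35 called at 3 h. Members whose sign differed between the scalings at 3 h could not be called by that rule, so earlier movement in them is not excluded. PSRP1 (AT5G24490, chromosome 5, 8365601 to 8367460, forward strand, TAIR10) is related to bacterial factors that bind the small subunit and hold idle ribosomes. In mock leaves it read 162, 164 and 161 TPM at 0 h, 209, 206 and 228 TPM at 1 h and 427, 444 and 419 TPM at 3 h. In coronatine leaves it read 171, 149.8 and 163 TPM at 0 h, 152, 177 and 165 TPM at 1 h and 95.1, 94.2 and 96.4 TPM at 3 h. The mock values climbed with no overlap between 0, 1 and 3 h, whereas the coronatine values at 3 h lay below every earlier value of either treatment. Against mock leaves at 0 h, 21.5% of all genes were higher without overlap at 1 h and 30.1% at 3 h. In coronatine leaves 63.8% of all genes were lower without overlap at 3 h than at 0 h.

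At 3 h PSRP1 was therefore 4.52-fold lower in coronatine than in mock leaves (relative log2 difference -1.70, SE 0.068, adjusted p = 7.9e-17, limma). Background at 3 h was 35.7% of genes falling and 14.2% rising. The same mock libraries enter both that comparison and the rise of PSRP1 in mock leaves from 0 to 3 h (relative log2 difference 1.37, SE 0.068, adjusted p = 1.7e-14, limma). Within coronatine leaves PSRP1 fell from 0 to 3 h (relative log2 difference -0.33, SE 0.068, adjusted p = 0.0078, limma). At 1 h PSRP1 had a relative log2 difference of -0.20 (SE 0.068) and was not called, at a limma adjusted p rounding to the threshold. Without mock 1 h replicate 2 or coronatine 1 h replicate 2 it was called at 1 h, at limma adjusted p = 0.039 and 0.041. The effect of coronatine on PSRP1 changed from 1 to 3 h by -1.52 (SE 0.096, limma adjusted p = 8.4e-12, background 25.1%).

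For 31 of the 35 members the sign at 3 h turned with the scaling, so the rule could not call them at that time. PSRP1, PSRP3/1 and PSRP6 were lower and RPL12-A higher on both. On TPM as deposited 33 of 35 were called lower (background 67.6%) and on TMM-rescaled TPM 23 were called higher and 1 lower (background 35.4% higher and 35.7% lower). The authors' deposited table for 3 h likewise held 22 members higher and 1 lower at an adjusted p under 0.05 (background 30.7% and 33.5%). Relative to the median gene the members' median was 0.13 at 3 h. RPL12-A, a stalk protein, stood at the upper end, with 558, 697 and 626 TPM in mock and 574, 611 and 715 TPM in coronatine leaves at 3 h. These groups overlapped, and the relative log2 difference was 0.48 (SE 0.090). RPL28 and RPL17 followed at 0.33 (SE 0.080) and 0.30 (SE 0.073).

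At the lower end at 3 h, behind PSRP1, were 2 further plastid-specific proteins. PSRP6, of the large subunit, read 282, 326 and 317 TPM in mock and 213, 206 and 149 TPM in coronatine leaves (relative log2 difference -0.25, SE 0.101). PSRP3/1, of the small subunit, read 311, 313 and 319.9 against 184, 209 and 227 TPM (-0.15, SE 0.112). Their groups did not overlap on the deposited TPM, as in 66.7% of all genes, and neither gene was called on both scalings. Without coronatine 3 h replicate 1, PSRP6 was called as well (limma adjusted p = 0.038).

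**Figure D2:**
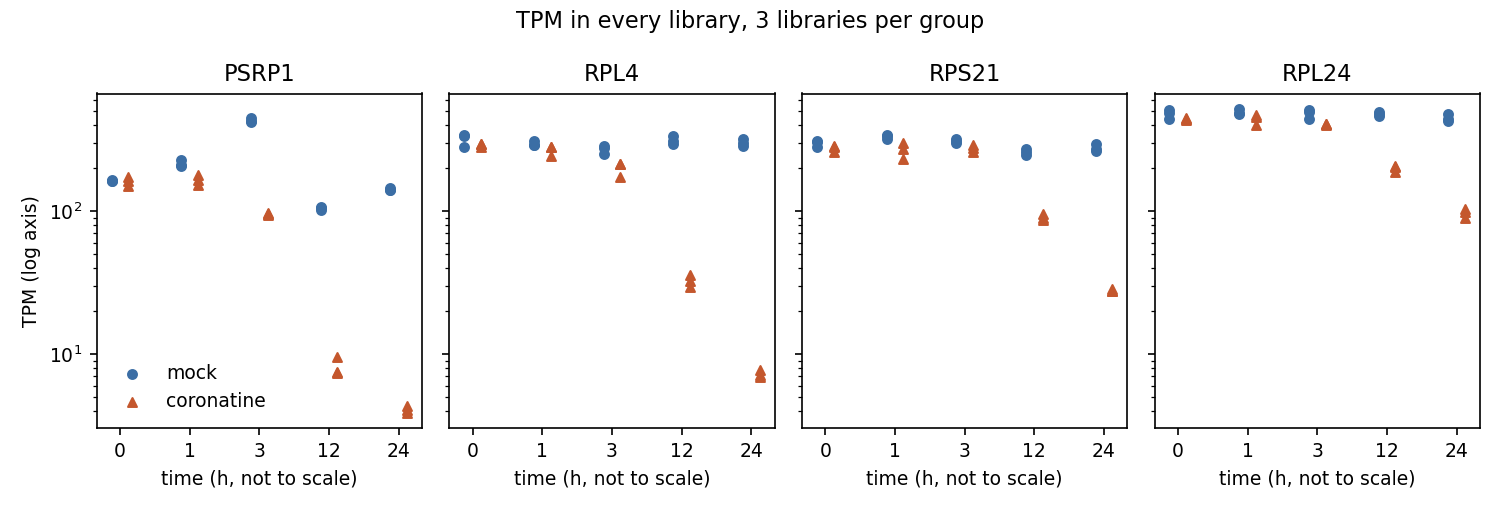
TPM in every library (log axis) against time (not to scale) for PSRP1, RPL4, RPS21 and RPL24, with 3 mock libraries (circles) and 3 coronatine libraries (triangles) per time. PSRP1 separates at 3 h, RPL4 drops from 289.8 to 7.31 TPM in coronatine leaves, and RPL24 drops least, from 439.6 to 97.2 TPM.

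By 12 h all 35 members had fallen in coronatine leaves, against a background of 41.4% of genes that fell. Their median relative log2 difference at 12 h was -1.74, with a range from -3.00 to -0.72, and the largest limma adjusted p among them was 4.7e-08. In TPM the median member was 4.92-fold lower. No coronatine value of any member reached a mock value at 12 h (background 62.2%). The median was -1.68 for the 22 large-subunit genes, -1.74 for the 9 small-subunit genes and -1.75 for the 4 plastid-specific ones. In bulk leaves, fewer cells of a type and less RNA per cell cannot be told apart.

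Among the large-subunit genes at 12 h, 3 fell furthest. RPL19 (AT4G17560), whose bacterial relative forms a bridge to the small subunit, read 181, 173 and 162 TPM in mock and 16.0, 13.7 and 15.9 TPM in coronatine leaves, 11.3-fold lower (relative log2 difference -2.87, SE 0.091, adjusted p = 9.3e-20, limma). RPL12-C, a stalk protein, read 872, 793 and 752 against 95.1, 68.2 and 87.9 TPM (relative log2 difference -2.72, SE 0.13, adjusted p = 6.9e-16, limma). RPL4, whose bacterial relative lines the exit tunnel, read 335, 293 and 307 against 32.5, 29.3 and 36.0 TPM (relative log2 difference -2.68, SE 0.086, adjusted p = 2.3e-19, limma). In all 3 genes the coronatine values lay far below and clear of the mock values.

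The large-subunit genes that fell least at 12 h were RPL24, RPL31 and RPL6. RPL24, an early-assembly protein near the tunnel exit in bacteria, read 491, 464 and 475 TPM in mock and 201, 187 and 206 TPM in coronatine leaves (relative log2 difference -0.72, SE 0.069, adjusted p = 4.7e-08, limma). RPL31 read 254, 224 and 219 against 88.9, 83.7 and 87.3 TPM (relative log2 difference -0.87, SE 0.063). RPL6 read 455, 439 and 426 against 164, 154 and 166 TPM (-0.90, SE 0.056). Their groups did not overlap either.

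Among the small-subunit genes, RPS21 and RPS1 serve as examples at 12 h. RPS21 read 273, 259 and 245 TPM in mock and 89.8, 86.7 and 95.0 TPM in coronatine leaves (relative log2 difference -0.96, SE 0.072). RPS1, which in bacteria binds messengers for initiation, read 415, 393 and 377 against 115, 103 and 117 TPM (-1.27, SE 0.072). Neither pair of groups overlapped. PSRP1 had fallen the furthest of all 35 at 12 h, to 7.47, 7.36 and 9.52 TPM against 107, 104 and 101 TPM in mock leaves (relative log2 difference -3.00, SE 0.068, adjusted p = 3.7e-22, limma).

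At 24 h all 35 had fallen again against mock leaves, with a background of 43.5% of genes that fell. The median relative log2 difference at 24 h was -3.31, the range -4.93 to -1.95, and the largest limma adjusted p 3e-18. The median member was 12.1-fold lower in TPM, and no groups overlapped (background 50.5%). Summed over the 35 genes, the share of all TPM was 1.3% to 1.39% in mock and 0.123% to 0.136% in coronatine leaves at 24 h, after 0.296% to 0.345% at 12 h. The median was -3.37 for the large-subunit, -3.26 for the small-subunit and -3.21 for the plastid-specific genes.

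RPL4 and RPL5 fell furthest at 24 h. RPL4 (AT1G07320, chromosome 1, 2249133 to 2250529, forward strand, TAIR10) read 285, 298 and 316 TPM in mock and 7.82, 6.97 and 7.15 TPM in coronatine leaves, 41.0-fold lower (relative log2 difference -4.93, SE 0.086, adjusted p = 6e-25, limma). RPL5 (AT4G01310, chromosome 4, 543970 to 545547, reverse strand), which holds the 5S ribosomal RNA in the large subunit in bacteria, read 354, 337 and 361 against 9.16, 10.4 and 8.54 TPM, 37.5-fold lower (relative log2 difference -4.85, SE 0.086, adjusted p = 6e-25, limma). PSRP1 read 141, 140.0 and 145 against 4.34, 3.91 and 4.09 TPM, 34.5-fold lower (relative log2 difference -4.56, SE 0.068, adjusted p = 5.7e-26, limma). All 3 genes were below 11 TPM in every coronatine library at 24 h.

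RPL24, RPL17 and RPL31 fell least at 24 h. RPL24 (AT5G54600, chromosome 5, 22182978 to 22184567, forward strand) read 442, 424 and 476 TPM in mock and 98.1, 104 and 89.6 TPM in coronatine leaves at 24 h, 4.60-fold lower (relative log2 difference -1.95, SE 0.069, adjusted p = 1.1e-18, limma). RPL17 read 479, 438 and 514 against 96.4, 94.7 and 91.0 TPM (-2.08, SE 0.073). RPL31 read 212, 200.3 and 214 against 34.8, 33.9 and 34.6 TPM (-2.32, SE 0.063). No groups overlapped. Differences between neighbours in this order were not tested.

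RPL11, which sits at the base of the stalk where translation factors bind, read 276, 272 and 288 TPM in mock and 12.0, 15.2 and 11.3 TPM in coronatine leaves at 24 h (-4.10, SE 0.095). RPL28 read 438, 405 and 436 against 54.6, 48.2 and 50.5 TPM (-2.79, SE 0.080). RPS1 read 335, 349 and 354 against 58.3, 54.9 and 48.6 TPM (-2.42, SE 0.072). RPS21 read 262, 269 and 292 against 27.7, 28.7 and 27.8 TPM (-3.00, SE 0.072).

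The other members filled the space between. At 24 h relative log2 differences ran from -4.35 for RPL21 and -4.34 for RPL15 through -4.05 for RPL9, -3.82 for RPL13, -3.44 for RPL18, -3.31 for RPL3 and -3.25 for RPL35 to -2.80 for RPL29, -2.72 for RPL27, -2.61 for RPL6 and -2.42 for RPL10. In the small subunit RPS10, RPS20, RPS6, RPS9 and RPS13 had -3.76, -3.53, -3.42, -3.26 and -2.92. PSRP3/1, PSRP5 and PSRP6 had -3.44, -2.98 and -2.76. The SE of a member lay between 0.056 (RPL6) and 0.13 (RPL12-C).

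**Figure D3:**
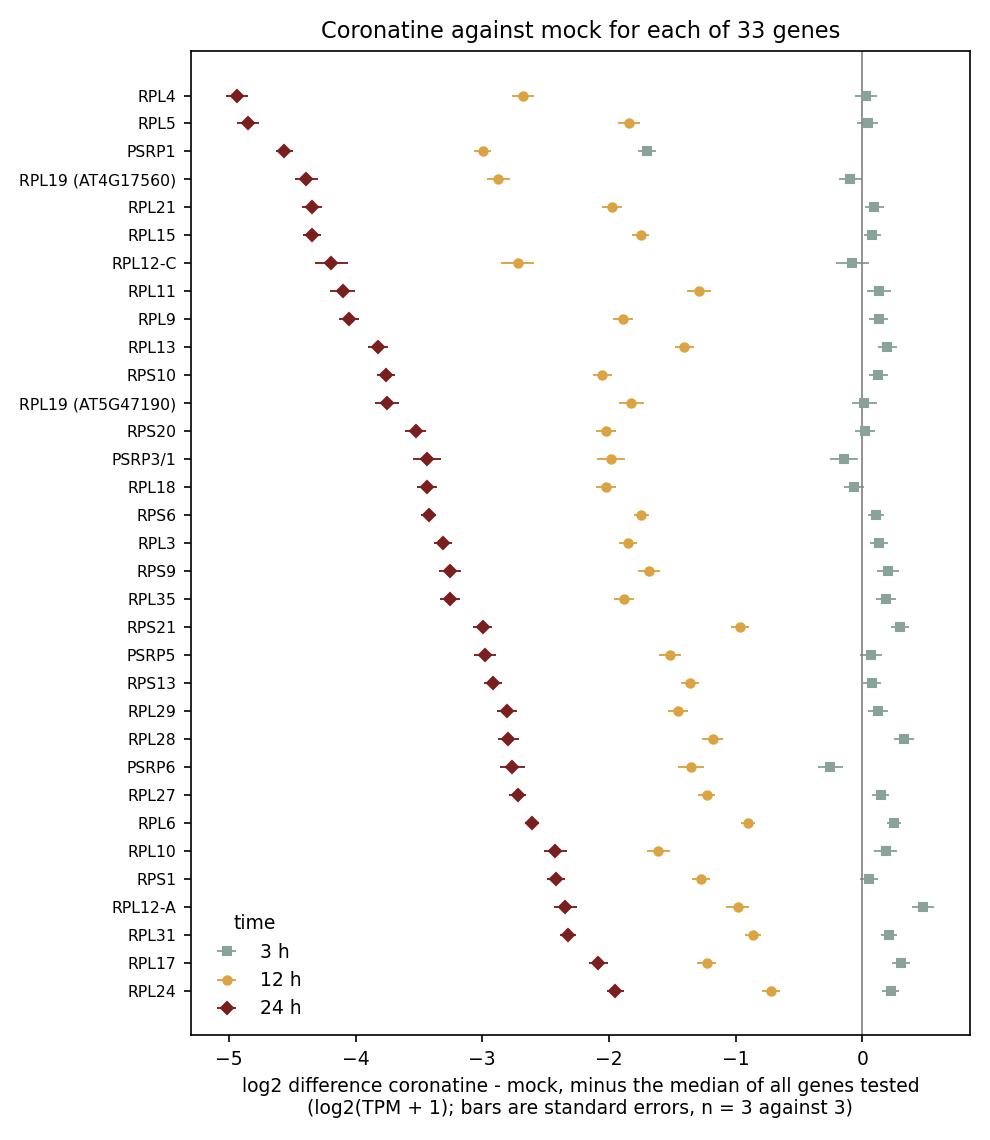
Relative log2 difference between coronatine and mock leaves for 33 of the 35 genes at 3 h (squares), 12 h (circles) and 24 h (diamonds), with SE bars, n = 3 against 3, ordered by the value at 24 h. Every gene shown lies left of 0 at 12 h and further left at 24 h, from -1.95 for RPL24 to -4.93 for RPL4, and PSRP1 alone lies far left at 3 h.

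The fall deepened in 2 steps that the design can test directly. From 3 to 12 h the coronatine effect fell in 35 of 35 members (background 30.6%), by a median relative log2 change of -1.85, largest limma adjusted p 8.4e-07. From 12 to 24 h it fell again in 35 of 35 (background 15.1%), by a median of -1.48, largest limma adjusted p 0.001. The members differed in which step was larger. RPL19 (AT4G17560) changed by -2.80 (SE 0.129) in the first step and RPL4 by -2.73 (SE 0.122). In the second step RPL5 changed by -2.97 (SE 0.122) and RPL11 by -2.78 (SE 0.135), against -1.91 and -1.44 in the first. RPL10 and RPL17 moved least in the second step, by -0.78 (SE 0.126) and -0.82 (SE 0.103). Across the 35 genes, which share libraries within a time but not between times, the orders at 12 and 24 h had a Spearman rho of 0.78.

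Apart from PSRP1, few members were called on both scalings in mock leaves over the same hours. Against mock leaves at 0 h, PSRP1 alone rose at 1 h (background 10.8% rose), and 0 fell (background 7.96%). At 3 h PSRP1 rose (background 22.8%) and RPL4, RPL9, RPL27 and PSRP5 fell (background 20.3%), with relative log2 differences of -0.26, -0.24, -0.35 and -0.25 (SE 0.067 to 0.087). Without mock 0 h replicate 1, mock 0 h replicate 2 or mock 3 h replicate 1 only 1 member was called as fallen there, and without mock 3 h replicate 2 there were 6. At 12 h 4 members fell (background 10.1%), with relative log2 differences of -0.87 (SE 0.068, limma adjusted p = 2.2e-08) for PSRP1, -0.43 for RPS21, -0.39 for RPL27 and -0.37 for RPS6. That count dropped to 1 without mock 0 h replicate 1, mock 0 h replicate 2 or mock 12 h replicate 3, and to 2 without mock 12 h replicate 1 or 2. On TMM-rescaled TPM alone more members were called at 12 h, as given below. Among members not called on both scalings, RPL12-C had mock means of 594 TPM at 0 h and 806 TPM at 12 h. Those of PSRP3/1 were 347 and 460 TPM. At 24 h limma called 0 of 35 (background 0.205% rose and 0.132% fell), with 2 and 5 members at an unadjusted p under 0.05 on TPM and TMM-rescaled TPM.

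PSRP1 changed in mock leaves as well. Its mock mean went from 162 ± 1.56 TPM at 0 h to 430.1 ± 12.5 TPM at 3 h (SD, n = 3). It was 104 ± 3.02 TPM at 12 h and 142 ± 2.46 TPM at 24 h. LHCB1.1, a mesophyll marker, had mock means of 9925, 119 and 10191 TPM at 0, 12 and 24 h. From 0 to 12 h, time after spraying and hour of the light cycle changed together and cannot be told apart in mock leaves. Over the other 34 members, levels in mock leaves at 0 h had a Spearman rho of 0.96 with those at 12 h and of 0.99 with those at 24 h. Coronatine leaves compared with coronatine leaves at 0 h gave 0 of 35 called at 1 h by limma (1 and 16 at an unadjusted p under 0.05 on TPM and TMM-rescaled TPM; background 19.1% fell and 12.6% rose). At 3 h 2 members fell, PSRP1 and PSRP6 (background 35.9%), of which 1 was lost without coronatine 0 h replicate 1 or coronatine 3 h replicate 3. All 35 fell at 12 h (background 41.9%) and all 35 at 24 h (background 43.4%), with medians of -1.74 and -3.29.

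As levels dropped, the members drew further apart. The SD of log2 TPM over the 35 genes was 0.619 to 0.632 in the mock and 0.945 to 0.992 in the coronatine libraries at 12 h. At 24 h it was 0.568 to 0.583 in mock and 1.21 to 1.23 in coronatine libraries. The mock spread was thus also wider at 12 h than at 24 h. The highest member stood 8.12 to 8.57 times above the lowest in mock leaves at 12 h and 25.6 to 33.9 times in coronatine leaves. At 24 h it stood 5.32 to 5.69 times above the lowest in mock leaves and 23.4 to 26.6 times in coronatine leaves. Mock and coronatine libraries did not overlap in either measure at either time. Levels in mock and coronatine leaves at 24 h kept a Spearman rho of 0.71 over the 35 genes, and the level in mock leaves at 0 h and the relative log2 difference at 24 h had a rho of 0.36.

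Gene pairs for the same subunit separated as well. RPL12-A (AT3G27830, chromosome 3, 10318505 to 10319432, forward strand, TAIR10) and RPL12-C (AT3G27850, chromosome 3, 10324839 to 10325713, forward strand) lie close together and both encode the stalk protein. The ratio of their TPM, RPL12-A over RPL12-C, ran at 0 h from 1.06 to 1.12 in mock and from 1.09 to 1.15 in coronatine leaves. By 3 h these ranges were 1.25 to 1.31 (mock) and 1.73 to 2.00 (coronatine). They were 0.821 to 0.866 and 2.67 to 3.02 at 12 h, then 1.01 to 1.09 and 3.04 to 4.79 at 24 h. From 3 h on the coronatine and mock libraries did not overlap.

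At 24 h RPL12-A read 635, 594 and 614 TPM in mock and 109, 99.8 and 95.8 TPM in coronatine leaves (relative log2 difference -2.34, SE 0.090, adjusted p = 1.4e-18, limma). RPL12-C read 586, 551 and 611 against 26.6, 32.9 and 20.0 TPM (relative log2 difference -4.19, SE 0.13, adjusted p = 2.4e-20, limma). Of the 2 stalk genes RPL12-C therefore had the lower level in every coronatine library. Their coding sequences are 94.1% identical and 23.5% of the 50-base windows of RPL12-A transcript occur in RPL12-C, so the split of reads between them is uncertain.

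The RPL19 pair does not share any 50-base window, and its coding sequences are 83% identical. RPL19 (AT5G47190, chromosome 5, 19164246 to 19166107, reverse strand, TAIR10) read 178, 176 and 183 TPM in mock and 10.3, 11.8 and 8.92 TPM in coronatine leaves at 24 h (relative log2 difference -3.75, SE 0.097, adjusted p = 7.8e-22, limma). RPL19 (AT4G17560, chromosome 4, 9780279 to 9782183, forward strand) read 139, 139 and 151 against 4.74, 5.19 and 4.49 TPM (relative log2 difference -4.39, SE 0.091, adjusted p = 7.8e-24, limma). The ratio of the first to the second was 1.04 to 1.14 in mock and 2.29 to 2.44 in coronatine leaves at 12 h. At 24 h it was 1.21 to 1.28 and 1.99 to 2.27, with no overlap at either time.

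**Figure D4:**
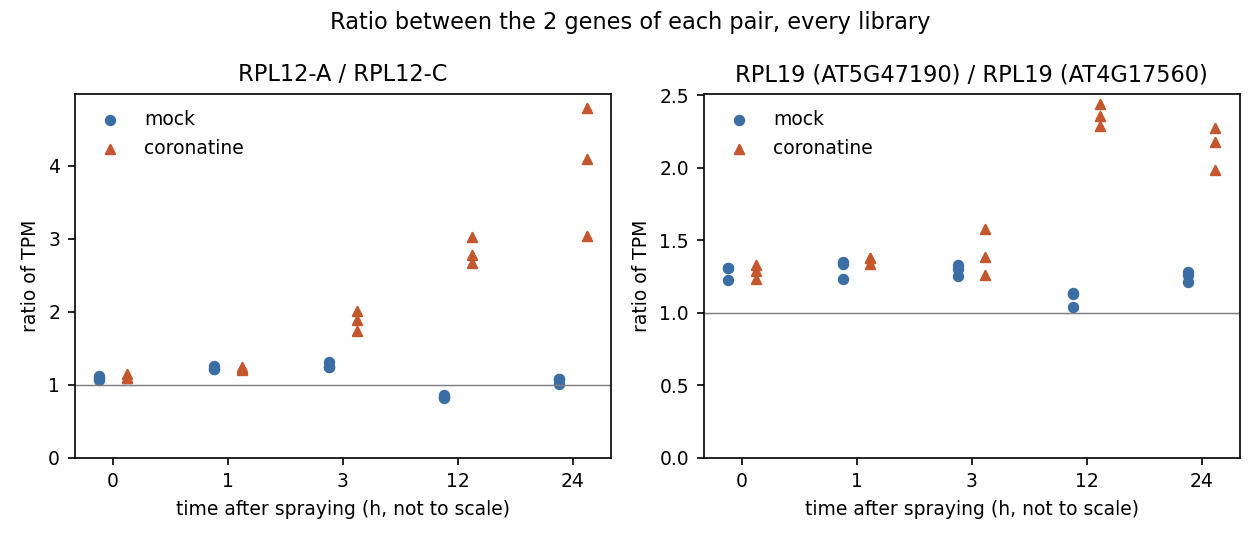
Ratio of TPM between the 2 genes of each pair in every library (linear axis from 0) against time (not to scale), for RPL12-A over RPL12-C at left and RPL19 (AT5G47190) over RPL19 (AT4G17560) at right, mock as circles and coronatine as triangles. The RPL12 ratio leaves the mock range from 3 h on and the RPL19 libraries of the 2 treatments do not overlap at 12 and 24 h, the coronatine ratio at 12 h lying between 2.29 and 2.44.

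Since the 35 genes fell together, the letters upstream of them were searched. Promoters were the 250 bases before each RefSeq gene start on TAIR10.1, and both strands were read. TGGGCC, a site II element common in plant genes for ribosomal and organelle proteins, occurred in 11 of 35 members (31.4%) and in 13.7% of 27443 promoters of the same length. The element GATAAG, bound by zinc-finger factors in plants, occurred in 9 members (25.7%) and in 12.3% of promoters. TGGGCT occurred in 14.3% of members and 12.3% of promoters, CCAATC in 11.4% and 10.2%, AAACCCTA in 5.71% and 4.49%, and the G-box CACGTG in 2.86% and 6.49%. A site II element of either spelling occurred in 31.4% of members and 19.2% of promoters. It was held by 6 of 9 small-subunit, 5 of 22 large-subunit and 0 of 4 plastid-specific genes.

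The 11 members with a site II element had a median relative log2 difference at 24 h of -3.75 (range -4.85 to -2.61), and the 24 without had -3.12 (range -4.93 to -1.95). These ranges overlap, and no test was made. RPL4, the member that fell furthest at 24 h, has no site II element in the window, and RPL5, next to it, has both spellings. A match is a description of letters and not a shown binding site.

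Promoter sequences are shown for RPL19 (AT4G17560), PSRP1 and RPL24. RPL19 (AT4G17560) has the most site II copies among those shown, PSRP1 was the first member called on both scalings, and RPL24 fell least. The sequences are from RefSeq, TAIR10.1, 5′ to 3′ on the gene's strand, ending at the base before the gene start. Capitals mark the motifs named above on either strand. The windows are chr4:9779974-9780223, forward strand, for RPL19, chr5:8365351-8365600, forward strand, for PSRP1 and chr5:22182593-22182842, forward strand, for RPL24.
RPL19 (AT4G17560): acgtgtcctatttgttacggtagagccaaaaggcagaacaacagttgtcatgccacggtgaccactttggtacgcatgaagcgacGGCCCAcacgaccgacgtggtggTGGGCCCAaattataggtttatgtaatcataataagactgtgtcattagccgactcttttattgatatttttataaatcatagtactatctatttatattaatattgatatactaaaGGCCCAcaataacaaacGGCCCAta
PSRP1: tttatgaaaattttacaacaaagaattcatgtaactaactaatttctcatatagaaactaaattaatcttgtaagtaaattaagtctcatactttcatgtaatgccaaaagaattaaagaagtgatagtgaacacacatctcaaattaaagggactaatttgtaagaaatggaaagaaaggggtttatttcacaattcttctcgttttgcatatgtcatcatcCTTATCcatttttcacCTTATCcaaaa
RPL24: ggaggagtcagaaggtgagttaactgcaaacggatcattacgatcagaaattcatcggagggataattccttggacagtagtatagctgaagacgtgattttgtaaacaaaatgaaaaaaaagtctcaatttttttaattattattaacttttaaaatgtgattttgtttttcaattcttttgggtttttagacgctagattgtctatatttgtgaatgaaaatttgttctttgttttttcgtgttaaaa
The RPL19 window holds 5 copies of TGGGCC, of which 2 overlap as TGGGCCCA, the PSRP1 window holds 2 GATAAG copies near the gene start, and the RPL24 window holds none of the letters searched. The RefSeq gene starts of RPL24, RPL19 (AT4G17560), RPL4 and many other members lie upstream of those in the authors' deposited table, while that of PSRP1 is the same. A window drawn from another start would hold other letters, so the motif shares given above could differ with it.

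Of the 7 further nuclear subunit genes, RPL12-B was listed at 0 TPM in every library and could not be tested. The loci rpl36 and rps12 (5' part), which encode core plastid subunits, were likewise listed at 0 throughout, so such a 0 does not show low expression. The other 6 further genes fell at both 12 h (background 41.4%) and 24 h (background 43.5%). RPS16-1, the most abundant, read 1013 ± 40.4 TPM in mock and 101 ± 3.63 TPM in coronatine leaves at 24 h (SD, n = 3; relative log2 difference -3.07, SE 0.084). RPL34 had -4.00 (SE 0.106) and PSRP2 -3.74 (SE 0.079). PSRP3/2, a near relative of PSRP3/1 that read 5.64 ± 1.06 TPM in mock leaves at 24 h, had -1.09 (SE 0.15). The 6 genes had a median of -3.18 at 24 h beside -3.31 for the 35.

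The subunits that the plastid genome itself encodes did not all fall. Of 26 loci, 24 were tested. The repeat copies of rpl2, rpl23, rps7 and the rps12 3' part have identical values. Each therefore enters the counts and medians below in duplicate. At 12 h 9 fell and 0 rose on both scalings (background 41.4% fell and 24.3% rose), so the share that fell was near that of all genes, with a median relative log2 difference of -0.04, and at 24 h 15 fell and 2 rose (background 43.5% and 37.2%), with a median of -0.80. On the log2(TPM + 1) scale rpl14 fell furthest, from 356 ± 3.61 TPM in mock to 67.3 ± 12.6 TPM in coronatine leaves at 24 h (SD, n = 3; relative log2 difference -2.16, SE 0.147). In TPM rps15 fell further, 5.64-fold against 5.28-fold for rpl14. The 2 that rose were the repeat copies of rps7, which share reads and listed identical values (91.9 ± 2.23 against 112 ± 10.4 TPM). Summed over the plastid-encoded loci without rpl32, TPM was 2971 to 3082 in mock and 1281 to 1484 in coronatine leaves at 24 h, with repeat copies counted in duplicate. The locus rpl32 alone read 1161 to 1584 and 1548 to 1812 TPM and was not called. The 35 members summed to 12955 to 13858 and 1228 to 1362 TPM. How messenger RNA was selected is not given in the sources used here, and plastid transcripts depend on it.

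Several genes that build and serve the plastid ribosome were called at 3 h. Of 15 nuclear genes for assembly and RNA maturation, 9 fell at 3 h (background 35.7%), 14 at 12 h (background 41.4%) and 15 at 24 h (background 43.5%). RH3, a plastid RNA helicase, read 149 ± 10.7 TPM in mock and 41.9 ± 6.64 TPM in coronatine leaves at 3 h (SD, n = 3; relative log2 difference -1.35, SE 0.111, limma adjusted p = 5.5e-11). PNP, the plastid polynucleotide phosphorylase, had -1.43 (SE 0.106), while RHON1 had 0.37 (SE 0.084) and was not called at 3 h. Of 10 plastid translation factors, 6 fell at 3 h, 9 at 12 h and 10 at 24 h, against the same backgrounds. FUG1, the initiation factor 2 of plastids, had -0.59 (SE 0.075) at 3 h, and RRF, the recycling factor, had -4.24 (SE 0.088) at 24 h. At 3 h the members' count was 1 of 35, where 31 members could not be called because their sign differed between the scalings. Whether the lists differ was not tested.

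Among 5 regulators named in the literature of chloroplast development, 3 fell at 1 h (background 15.3%). CIA2, a nuclear factor that in Arabidopsis activates genes for plastid ribosomal proteins and protein import, read 21.8, 23.4 and 19.2 TPM in mock and 4.71, 7.42 and 6.63 TPM in coronatine leaves at 1 h (relative log2 difference -1.47, SE 0.114, adjusted p = 3.1e-11, limma). Its relative CIL had -0.82 (SE 0.121) at 1 h. GLK2, an activator of photosynthesis genes, had -1.07 (SE 0.129). At 24 h CIA2 was at 2.40, 2.29 and 1.86 TPM in coronatine leaves against 28.9, 31.2 and 31.2 TPM in mock leaves. GLK1 fell at 12 h (-0.65, SE 0.078), and GUN1, a plastid signalling protein, was not called at any time (relative log2 difference -0.07, SE 0.069, at 24 h). Any link between these regulators and the members was not tested.

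**Figure D5:**
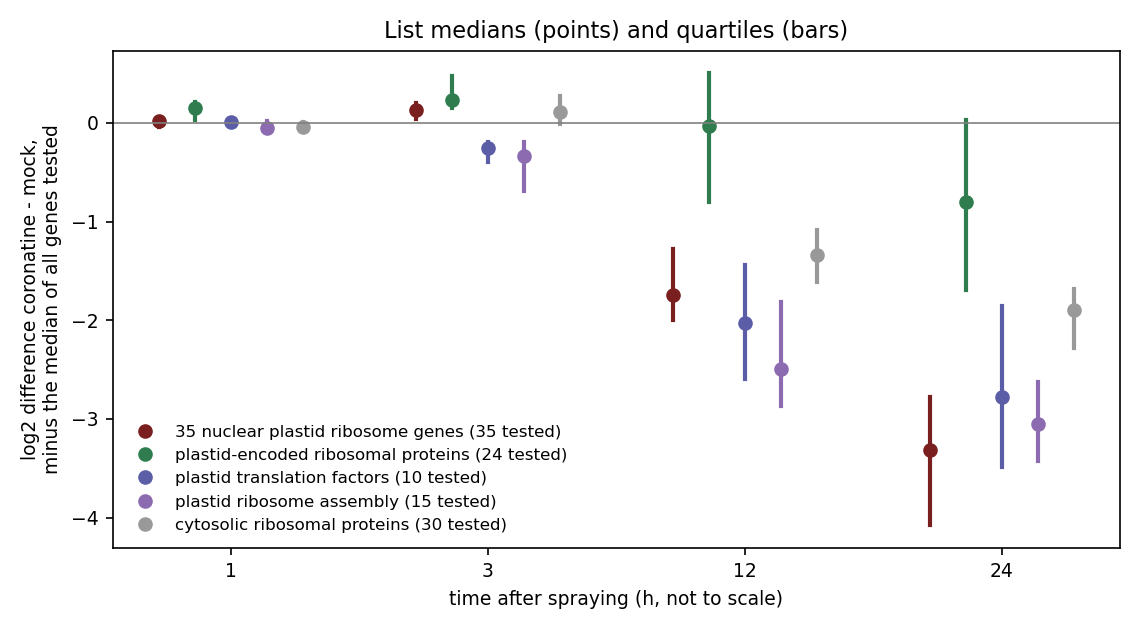
Median (points) and quartiles (bars) of the relative log2 difference between coronatine and mock leaves for the 35 nuclear plastid ribosome genes and 4 other lists at 1, 3, 12 and 24 h (time axis not to scale, horizontal line at 0). At 24 h the medians run from -3.31 for the 35 genes to -0.80 for the plastid-encoded subunits on the log2(TPM + 1) scale, which understates low genes (in TPM the median fold was 12.1 for the 35 genes and 17.7 for the assembly list). At 3 h the translation factor and assembly lists lie below 0.

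Genes of the cytosolic ribosome, which makes the nuclear-encoded proteins, also fell. Of 30 genes, 30 fell at 12 h (background 41.4%) and 29 at 24 h (background 43.5%). Their medians were -1.34 and -1.89, beside -1.74 and -3.31 for the 35 members. From 12 to 24 h the coronatine effect fell in 20 and rose in 1 of the 30 (background 15.1% fell and 24.9% rose). The summed TPM of the cytosolic list over that of the members was 0.601 to 0.662 in mock and 1.55 to 1.69 in coronatine leaves at 24 h, with no overlap. In mock leaves from 0 to 3 h 30 of 30 cytosolic genes fell, where 4 of 35 members did (background 20.3%). The gene cytosolic RPL24A had a relative log2 difference of -2.53 (SE 0.086) at 24 h and cytosolic RPL10C, which rose, 0.61 (SE 0.093).

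Markers of leaf cell types moved over the same hours. Background at 24 h was 43.5% of genes falling and 37.2% rising. The 4 mesophyll markers summed to 40174 to 41175 TPM in mock and 2399 to 3863 TPM in coronatine leaves at 24 h, and 4 of 4 fell. The 3 epidermis markers summed to 633 to 664 and 56.5 to 75.4 TPM, and 3 of 3 fell. The 3 guard cell markers summed to 36.3 to 38.5 and 104 to 106 TPM, and 2 of 3 rose. Most of that sum's rise was KAT1, with means of 5.73 TPM in mock and 61.2 TPM in coronatine leaves. FAMA had means of 18.3 and 33.05 TPM, while MYB60 was lower in coronatine leaves, at 13.3 and 10.1 TPM. The 2 phloem markers summed to 158 to 163 and 142 to 152 TPM, with 1 of 2 called as risen and 0 as fallen. They differed in direction, with means of 146.5 and 117 TPM for SUC2 and of 13.9 and 29.3 TPM for APL. The flower markers summed to 0.05 to 0.15 and 0 to 0.18 TPM. The part of these shifts in the members' fall was not tested.

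The authors' deposited table for 12 h listed all 35 members as lower at an adjusted p under 0.05 (background 38.4%), with log2 fold changes from -3.01 to -0.59. The authors' deposited table for 24 h did so as well (background 40.3%), from -5.06 to -1.91. At 1 h the authors' deposited table held 1 member lower (background 14.1%), PSRP1, with a log2 fold change of -0.19.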

How the data were processed

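RNA-seq values of 30 whole-leaf libraries (10 groups of 3) were used. Per the labels' protocols, libraries were made with a BGI transcriptome kit and run on DNBseq, from RNA of integrity 6.5 or more. The submitters' processing notes name RSEM 1.3.3, DESeq2 and TAIR10 without roles, and other steps are not given in the sources used here. The authors deposited a TPM table, in which every library has the same total, so depth is unknown. The authors' deposited tables of coronatine against mock also hold a mean normalised signal, log2 fold changes with their errors, a test score, and p-values with adjusted p-values.

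From the TPM, log2(TPM + 1) was fitted with limma 3.58.1 in R 4.3.3 (trend, 1 mean per treatment and time, 30 libraries), two-sided, for 19005 genes with at least 1 TPM in at least 3 libraries, with Benjamini-Hochberg adjustment over those genes at 0.05. The fit was run on TPM as deposited and on TPM scaled by TMM factors (trims of 30% and 5%), and was tested on simulated data. Members and lists were chosen with earlier results of these data known, and plastid gene names come from general knowledge. Members were picked as the 3 with the most negative and the 3 with the most positive difference at 1, 3, 12 and 24 h. A set list of members was added. Values in every library are given for many of these, and for others, such as RPL10, only relative differences are given. Of the members, 2 are not reported by name here, though all counts, medians and ranges include them. RPL4 at 12 h, CIA2 and RPS16-1 were added after their values were seen. The main fit did not pair samples by replicate number. Alternatives were other pseudocounts, filters, scalings, tools and leaving out each library. Promoters were read from RefSeq TAIR10.1.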

Additional observations from a re-analysis of the deposited data

Results flagged for a closer look

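By the interaction test in limma the coronatine effect fell between times for 1 member from 1 to 3 h (background 25.1%). It fell for 35 from 3 to 12 h (background 30.6%) and for 35 from 12 to 24 h (background 15.1%). The member that differed from 1 to 3 h was PSRP1, whose effect changed by a relative log2 value of -1.52 (SE 0.096). At 3 h its 3 coronatine libraries lay below its 3 mock libraries, as in 66.7% of all genes. Groups of 3 were too small to look for outlying samples.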

How the results depend on the processing

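At 12 and 24 h, and for the changes from 3 to 12 h and from 12 to 24 h, all 35 members were called as fallen under every alternative run. Earlier counts depended on scaling. At 1 h 0 members were called, against 1 with a pseudocount of 5, 1 with a filter of 5 TPM, 14 on TPM as deposited, 25 with quantile scaling and 1 in the authors' deposited table. At 3 h 1 was called, against 33 on the deposited TPM, 24 with TMM factors (23 higher), 35 with quantile scaling and 23 in the authors' deposited table (22 higher). The change from 1 to 3 h gave 7, 9 (8 higher) and 18 with TPM, TMM and quantile scaling. Background for that change was 45.7% lower on TPM, and 26.3% higher and 25.1% lower on TMM. In mock leaves against 0 h, quantile scaling gave 2 at 1 h, 3 at 3 h (2 higher) and 11 at 12 h. TMM gave 12 at 3 h (11 lower, background on TMM 23.2% lower and 22.8% higher). It gave 26 at 12 h (background on TMM 21.6% lower and 20.2% higher). TPM alone gave 9 at 12 h (5 higher, background on TPM 50.6% higher and 10.1% lower), and no filter and no trend each gave 2 at 12 h. In coronatine leaves against 0 h, TPM, TMM and quantile scaling gave 1, 7 (all higher) and 8 at 1 h. Background there was 41.9% lower on TPM and 20.8% higher on TMM. At 3 h these scalings gave 29, 24 (22 higher) and 34, where a fit of only the groups compared gave 1. Background there was 63% lower on TPM, and 37.7% higher and 35.9% lower on TMM. The cause of this dependence on scaling was not tested. No background is given for quantile scaling, so its counts cannot be set against all genes.

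With quantile scaling some members turned from positive to negative relative differences: at 1 h RPL6 -0.092, RPL24 -0.19 and RPL31 -0.17, and at 3 h RPL4 -0.50, RPL5 -0.45, RPL6 -0.29, RPL10 -0.35, RPL11 -0.37, RPL12-A -0.19, RPL17 -0.23, RPL19 (AT5G47190) -0.45, RPL24 -0.31, RPL28 -0.22, RPL31 -0.31, RPS1 -0.45 and RPS21 -0.22.

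Leaving out each library in turn gave 0 to 1 member at 1 h, 1 to 2 at 3 h (2 without coronatine 3 h replicate 1) and 1 to 2 for the change from 1 to 3 h (2 without coronatine 1 h replicate 2). It gave 2 to 7 in mock leaves at 3 h, 1 to 2 in coronatine leaves at 3 h and 1 to 4 in mock leaves at 12 h. Within a time, coronatine and mock replicates with the same number in their titles did not deviate together (correlations -0.25 to 0.12 over 15 pairs). The deposited column names carry other numbers, and a pairing or batch by those numbers was not tested. A fit with the replicate number as a block called 1 member at 1 h in place of 0. It moved no other count of members by over 1.5 times. TPM carries no depth, so the precision of low values is unknown.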
